A study of Homo sapiens with 12 samples.

Results

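SR proteins and heterogeneous nuclear ribonucleoproteins (hnRNPs) are the main families of RNA-binding proteins that decide which exons enter an mRNA. The set described here holds the protein-coding genes whose symbols are SRSF or HNRNP followed by the family letters and numbers, together with TRA2A and TRA2B, and leaves out pseudogenes. It holds 38 genes, 14 SR and 24 hnRNP, of 62069 gene identifiers in the count table. A filter on low counts kept 34 members, 12 SR and 22 hnRNP, among the 13248 genes that were tested. The reference symbols HNRNPCL2 and HNRNPCL3 also follow the rule but were not matched to a row.

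An SR protein carries RNA recognition motifs and a tail rich in arginine and serine, which SR protein kinases phosphorylate. SR proteins typically bind enhancers inside exons and favour inclusion of the exon, while many hnRNPs coat the nascent transcript and act through silencers, although members of both families can do either. Many genes of both families limit their own output by splicing in a poison exon that sends the transcript to nonsense-mediated decay, and lower levels of several of these factors have been described in senescent human fibroblasts. Counts per gene do not separate the productive transcript from the one with the poison exon.

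RNA was sequenced from a line of human fetal lung fibroblasts, IMR90 ER:RAS, in which a RAS oncogene is joined to a hormone-binding part of the oestrogen receptor. The 12 libraries formed 3 groups of 4, all at passage 15 and day 6. The control group (libraries 17 to 20) received only the solvent DMSO and is called non-senescent in the design. The 4OHT group (libraries 21 to 24) received 100 nM of 4-hydroxytamoxifen, which switches the RAS fusion on, and is called senescent. The 4OHT+3DA group (libraries 29 to 32) also received 3-deazaadenosine, an analogue of adenosine that blocks S-adenosylhomocysteine hydrolase, the AHCY enzyme, and so slows the transfer of methyl groups. All groups carry the RAS fusion, including the controls. No cells without it were given 4OHT and no cells were given 3DA alone here, so effects of 4OHT itself and of RAS cannot be told apart. Effects of 3DA on cells with RAS switched on and on cells without cannot be told apart either. The dose of 3DA is not given in the sources used here.

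Library totals ran from 9451160 to 19291493 reads. All 12 fibroblast markers (collagens, PDGF receptors, VIM and others) were detected. Of the 12, 8 were lower with 4OHT than with DMSO, led by DCN (-2.70 on the log2 scale), and 1 was higher (FAP), and the list summed to 9948 to 11161 CPM against 14693 to 16364 CPM. Of 12 epithelial markers 6 were tested and 4 were lower, led by KRT19 (-4.23), with sums of 56.9 to 60.4 CPM against 127 to 150 CPM. Of 12 immune markers, 4 (CD3E, CD3D, ITGAM and NKG7) had 0 reads, and the 2 tested, CSF1R and FCER1G, were higher with 4OHT, with sums of 4.16 to 4.97 CPM against 0.734 to 2.33 CPM. Of 9 endothelial markers, PECAM1 and CDH5 had 0 reads, and 1 of 3 tested (TIE1) was higher, with sums of 7.2 to 10.4 CPM against 5.65 to 8.43 CPM. Over all genes tested, 25.5% were lower and 26.5% higher in that comparison, so nothing is read from the counts of the short immune and endothelial lists. With 3DA added, the sums were 9644 to 10885, 42.4 to 54.3, 2.94 to 4.75 and 2.76 to 5.11 CPM for the fibroblast, epithelial, immune and endothelial lists. The part of these shifts in the members' values was not tested. Library 31 stood apart from the other 4OHT+3DA libraries: over all genes, the chi-square per degree of freedom between it and library 29, 30 or 32 was 42.4, 21.1 and 42.6, against 10.4 to 15.6 among the other 3. Counts of members and the values of most members named for 4OHT+3DA are therefore given with and without it. Whether replicates are separate cultures is not stated, so the p-values reflect only how far these samples differ, and that spread may be technical. In bulk RNA, fewer cells of a kind and less RNA per cell cannot be told apart.

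Levels are in CPM, counts scaled to the size of the library after TMM correction, and group values are means ± SD (n = 4) unless another n is given. Per kilobase of annotated exon in the DMSO group, HNRNPK, which binds C-rich stretches of RNA and DNA, led both families with 162 CPM per kb. HNRNPC, which binds runs of U, followed with 86.3 CPM per kb, then HNRNPH2, a binder of G runs, with 80.4. The leading SR members were SRSF1 with 73.4 CPM per kb and SRSF2 with 60.7 CPM per kb. Exon length was the union over all annotated transcripts, so a gene with long minor transcripts, such as HNRNPU at 5.67 CPM per kb, is placed lower than its main transcript alone would place it. The lowest tested members were HNRNPUL2 with 0.835 CPM per kb and the HNRNPA1-like genes HNRNPA1L2 and HNRNPA1L3 with 1.59 and 3.33. These values place the genes in order within a group and were not tested against each other.

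The 4 members that did not pass the filter were SRSF8, SRSF12, HNRNPCL1 and HNRNPCL4. SRSF8 and HNRNPCL4 had 0 reads in all 12 libraries, and HNRNPCL1, a relative of HNRNPC, had 3 reads in all. Whether the counting could assign reads to SRSF8 and HNRNPCL4 is not known, so they are not read as silent. SRSF12, a relative of SRSF10, had 3, 8, 7 and 19 reads in the DMSO libraries, 1, 4, 1 and 4 in the 4OHT libraries and 1, 1, 2 and 2 in the 4OHT+3DA libraries. Its DMSO and 4OHT values overlapped, and no test was made on them.

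The summed level of each family was lowest in the 4OHT libraries. The summed level of the SR members was 1767, 1927, 1907 and 1930 CPM in the DMSO libraries, 1442, 1466, 1490 and 1404 CPM in the 4OHT libraries and 1682, 1831, 2384 and 1589 CPM in the 4OHT+3DA libraries. The 4OHT libraries lay below all others, and library 31 lay above all DMSO libraries. For the hnRNP members, the sums were 4547, 4741, 4760 and 4868 CPM with DMSO, 3574, 3587, 3683 and 3692 CPM with 4OHT, and 4265, 4535, 5554 and 4068 CPM with 4OHT and 3DA. The order of the groups was the same as for the SR sum, with the 4OHT libraries lowest and library 31 highest. The mean sums were 1883 ± 77.8, 1450 ± 36.9 and 1871 ± 356 CPM for SR and 4729 ± 134, 3634 ± 61.9 and 4605 ± 661 CPM for hnRNP. Without library 31, the 4OHT+3DA means were 1701 ± 122 and 4289 ± 234 CPM (n = 3), which lie between those of the other groups. The ratio of the SR sum to the hnRNP sum, which the most abundant members dominate, ran from 0.380 in library 24 to 0.429 in library 31. With each member weighed alike, the mean log2 CPM of SR less that of hnRNP was 0.45 to 0.60 in the DMSO libraries. It was 0.57 to 0.73 in the 4OHT libraries, which overlapped DMSO, and 0.62 to 0.75 in the 4OHT+3DA libraries, which did not. These sums and means describe the families and carry no test.

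**Figure D1:**
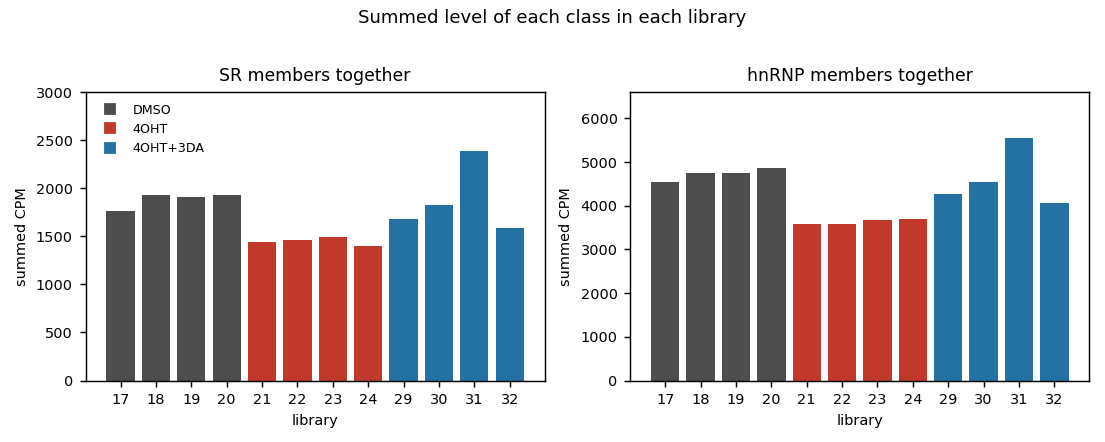
Summed CPM (vertical axes) of the SR members (left) and of the hnRNP members (right) in each of the 12 libraries (horizontal axes, by library number), 1 bar per library, coloured by group. The 4OHT bars (1404 to 1490 CPM for SR, 3574 to 3692 CPM for hnRNP) are the lowest in both panels, and library 31 (2384 and 5554 CPM) is the highest.

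The comparison of 4OHT with DMSO asks how the factors differed once RAS was switched on. Members that changed were lower, with 1 exception. Of 12 SR members, 7 fell, 1 rose (SRSF9) and 4 did not pass the threshold, while of 22 hnRNP members 17 fell, 0 rose and 5 did not pass (edgeR's quasi-likelihood test, with a threshold of 0.05 on the Benjamini-Hochberg adjusted p). Over all genes tested, 25.5% were called lower and 26.5% higher, 52% in all. The median log2 fold change was -0.28 for SR and -0.48 for hnRNP, against -0.01 for all genes tested. In 9 SR and 16 hnRNP members every 4OHT library lay below every DMSO library, which held for 25.1% of all genes tested, and in 1 SR member every 4OHT library lay above, which held for 26.3%. Scaling by library totals in place of TMM moved the median of all genes to -0.167 and the medians to -0.44 for SR and -0.64 for hnRNP. With library totals 9 SR and 19 hnRNP members were called lower and 0 higher, beside 35.7% of all genes lower and 18% higher. The rise of SRSF9 was not called with library totals (log2 fold change 0.10), without DMSO library 17 (0.21) or without 4OHT library 22 (0.22).

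**Figure D2:**
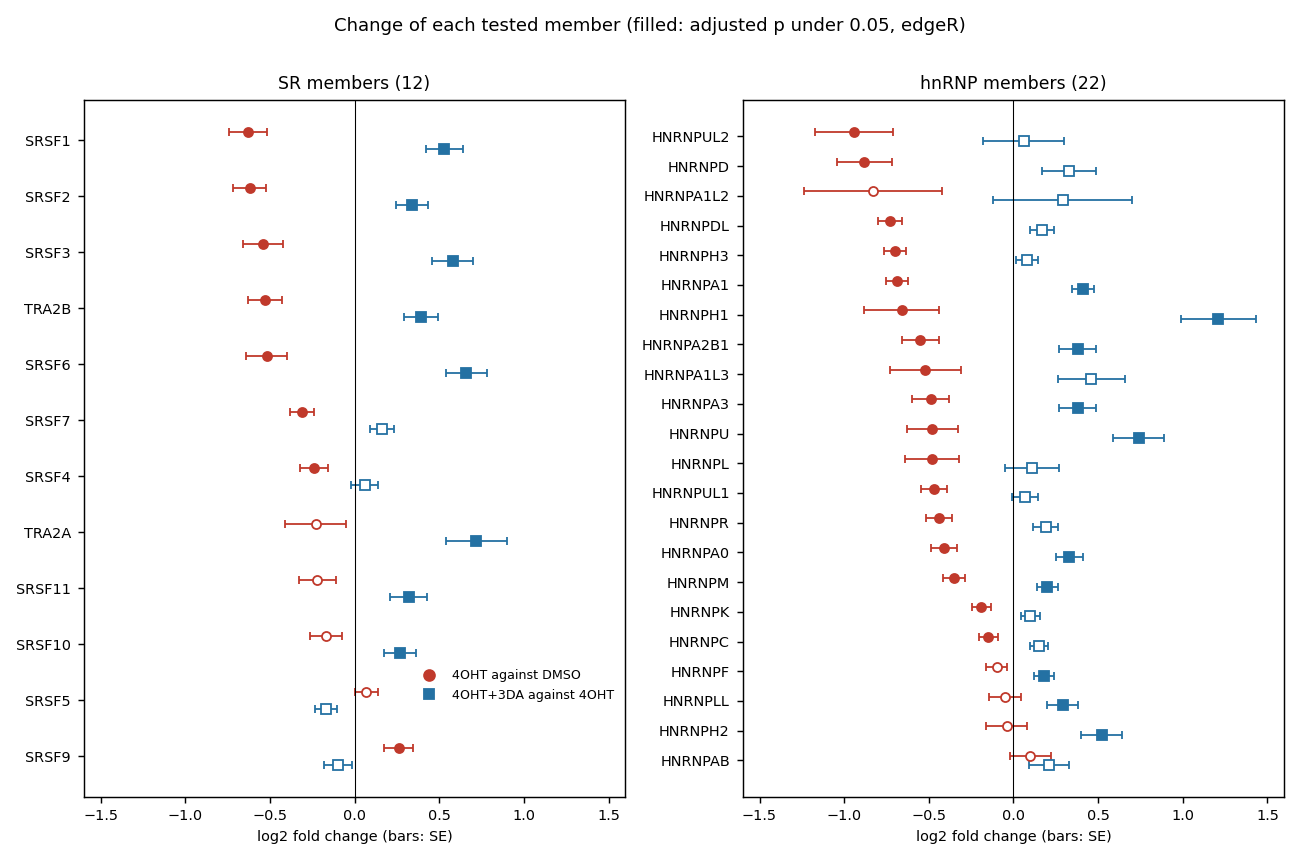
Log2 fold change (horizontal axis) of each tested SR member (left) and hnRNP member (right), for 4OHT against DMSO (circles) and 4OHT+3DA against 4OHT (squares); bars are the SE, and filled symbols have an adjusted p under 0.05. Both comparisons share the 4OHT libraries, so the mirrored positions are not independent. Filled circles lie left of 0 except SRSF9 (0.26), and filled squares lie right of 0, with HNRNPH1 (1.21) farthest.

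Among the SR members, the largest falls were in SRSF1, SRSF2, SRSF3 and TRA2B. SRSF1, one of the first SR proteins described and one that also acts in translation and decay of mRNA, stood at 232, 250, 256 and 242 CPM in the DMSO libraries and at 154, 153, 164 and 163 CPM in the 4OHT libraries. The groups did not overlap, and each was tight. The log2 fold change was -0.63 (SE 0.11, adjusted p = 7.6e-05). SRSF2, a protein of nuclear speckles, stood at 179, 193, 180 and 180 CPM with DMSO and at 119, 121, 114 and 121 CPM with 4OHT. All 4OHT values were again below all DMSO values, and the log2 fold change was -0.62 (SE 0.095, adjusted p = 1.9e-05). SRSF3, the smallest SR protein and an adaptor for mRNA export, had 306, 361, 349 and 377 CPM with DMSO and 241, 241, 249 and 225 CPM with 4OHT. Its DMSO values were spread more widely but stayed above the 4OHT values (log2 fold change -0.54, SE 0.12, adjusted p = 7.8e-04). TRA2B, which binds GA-rich exonic enhancers, had 127, 128, 133 and 144 CPM with DMSO and 95, 90.7, 101 and 82.8 CPM with 4OHT. Those groups were apart as well (log2 fold change -0.53, SE 0.1, adjusted p = 3.1e-04). For SRSF1 and SRSF2, 60.7% and 36.7% of exon bases are shared with other genes in the GENCODE v29 annotation, a later build than the authors', so their reads may be split or lost.

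Of the other SR members, SRSF6, a binder of exonic enhancers, fell from 159 ± 6.29 to 111 ± 6.8 CPM (log2 fold change -0.52). SRSF7, an export adaptor like SRSF3, fell from 210 ± 9.12 to 169 ± 9.87 CPM (-0.31), and SRSF4 from 61.6 ± 3.67 to 52 ± 3.42 CPM (-0.24). SRSF9 was the member that rose, from 40.6 ± 2.48 to 48.6 ± 3.06 CPM (log2 fold change 0.26, SE 0.084, adjusted p = 0.0148), and 46.2% of its exon bases are shared with GATC. SRSF10, which turns repressor when dephosphorylated, and SRSF11 had values of -0.17 and -0.22 that did not pass the threshold (adjusted p = 0.153 and 0.0981), although every 4OHT library lay below every DMSO library. Both passed when library 31, which is in neither group but adds to the shared estimate of spread, was left out (adjusted p = 0.0221 and 0.00733). SRSF5 did not pass (0.07, 95% interval -0.08 to 0.22), and TRA2A, the paralogue of TRA2B, did not either (-0.23, 95% interval -0.64 to 0.17).

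Among the hnRNP members, HNRNPUL2, HNRNPD, HNRNPDL and HNRNPH3 fell most. HNRNPUL2, a relative of the chromatin-bound HNRNPU, stood at 5.1, 4.8, 3.79 and 4.4 CPM in the DMSO libraries and at 1.74, 2.55, 2.28 and 2.74 CPM in the 4OHT libraries. It was scarce, but the groups did not overlap (log2 fold change -0.94, SE 0.23, adjusted p = 0.00204). As 44.1% of its exon bases are shared with the readthrough gene HNRNPUL2-BSCL2, part of its reads may not have been counted. HNRNPD, also called AUF1 and known for binding AU-rich elements of unstable mRNAs such as those of cytokines, stood at 49.8, 59.9, 55.2 and 74.4 CPM with DMSO and at 30.1, 37.9, 30.7 and 31.6 CPM with 4OHT. The highest 4OHT library was below the lowest DMSO library (log2 fold change -0.88, SE 0.16, adjusted p = 1.7e-04). Its paralogue HNRNPDL had 212, 232, 232 and 230 CPM with DMSO and 137, 137, 139 and 132 CPM with 4OHT. Those groups were far apart beside their spread (log2 fold change -0.73, SE 0.072, adjusted p = 6.1e-08). HNRNPH3, of the family that binds G runs, had 143, 134, 133 and 141 CPM with DMSO and 82.3, 86.8, 81.3 and 87.5 CPM with 4OHT. It too showed no overlap (log2 fold change -0.70, SE 0.067, adjusted p = 4.2e-08).

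**Figure D3:**
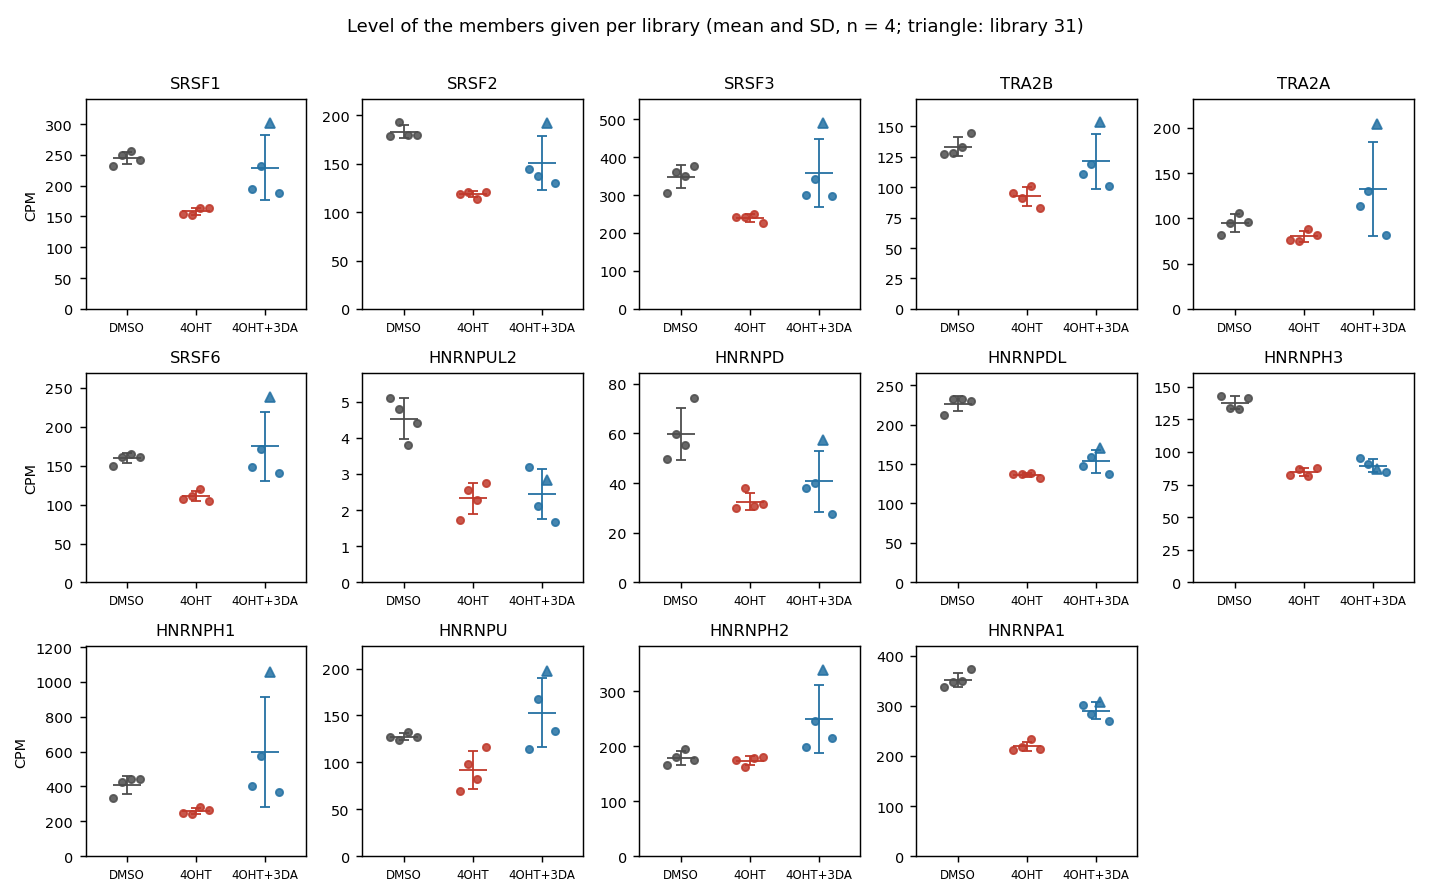
CPM (vertical axes, from 0) of the 14 members given per library, with 1 point per library, a horizontal line at the group mean and bars of 1 SD (n = 4); the triangle is library 31. In SRSF1, HNRNPDL and HNRNPH3 the 4OHT points lie below all DMSO points, and in HNRNPH1 library 31 (1054 CPM) lies far above all others.

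Of the A and B type hnRNPs, which include repressors of splice sites that act through silencers, 5 of 7 fell and 2 did not pass. HNRNPA1 fell from 352 ± 14.6 to 219 ± 9.88 CPM (-0.69 on the log2 scale, SE 0.065, adjusted p = 3.6e-08), HNRNPA2B1 from 637 ± 27.5 to 435 ± 12.7 CPM (-0.55), HNRNPA3 from 44.6 ± 3.85 to 31.7 ± 4.72 CPM (-0.49) and HNRNPA0 from 161 ± 7.07 to 121 ± 2.23 CPM (-0.41). HNRNPAB did not pass (0.10, adjusted p = 0.521). HNRNPA1 has 73 annotated pseudogenes, which held 3.34% of their joint reads, and adding those reads left its log2 fold change at -0.69. The near-identical HNRNPA1L3 fell by 0.52 on the log2 scale (adjusted p = 0.0427) with overlapping libraries, and HNRNPA1L2 at -0.83 did not pass (adjusted p = 0.0957), with reads that may belong to HNRNPA1. HNRNPC and HNRNPK, among the most abundant, showed the smallest falls that passed, -0.15 and -0.19, from 631 ± 22.7 to 568 ± 0.825 CPM and from 827 ± 12.2 to 726 ± 14.5 CPM.

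HNRNPH1, a binder of G runs like HNRNPH3, had 334, 425, 443 and 440 CPM with DMSO and 249, 239, 283 and 265 CPM with 4OHT. The groups did not overlap, though DMSO library 17 lay below its group (log2 fold change -0.66, SE 0.22, edgeR adjusted p = 0.0161), and DESeq2 did not call it. Its relatives HNRNPH2 and HNRNPF did not pass, at -0.04 (95% interval -0.31 to 0.23) and -0.10 (-0.24 to 0.04). HNRNPU, a scaffold of chromatin and RNA, had 127, 124, 132 and 127 CPM with DMSO and 69.2, 98.3, 81.9 and 116 CPM with 4OHT. The 4OHT values were spread widely but all lay below the DMSO values (log2 fold change -0.48, SE 0.15, adjusted p = 0.0101). HNRNPUL1, HNRNPR, HNRNPM and HNRNPL, a binder of CA repeats, fell as well, by 0.47, 0.44, 0.35 and 0.48 on the log2 scale. HNRNPLL, the paralogue of HNRNPL known from T cells, did not pass (-0.05, 95% interval -0.27 to 0.16). The calls of HNRNPC, HNRNPL, SRSF4 and HNRNPA1L3 were lost in 2 or more of the fits that left out 1 DMSO or 4OHT library.

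Short stretches before the start of some hnRNP genes are shown because they hold a motif that was searched for. RefSeq windows of 250 bases before the annotated start (GRCh38.p14) were matched for 34 of 38 members, with none for HNRNPA1, HNRNPA1L3, SRSF2 and TRA2A. They include the untested SRSF8, SRSF12, HNRNPCL1 and HNRNPCL4, so the 22 hnRNP and 12 SR windows are not the 22 and 12 members tested. For 27 of the 34 windows, the bases after the start lie in a transcript of that gene in GENCODE v29, and the other windows may not sit at the start of that gene. The E-box CACGTG, the palindromic letters bound by MYC, MAX and USF proteins, was found in 6 of 22 hnRNP windows (27.3%), 0 of 12 SR windows and 7.84% of the windows of 15843 protein-coding genes. Being a palindrome, it reads the same on both strands. With 12 SR windows and 7.84% over all genes, the 0 SR matches are not read as a difference between the families. The 7 matches follow, each 5′ to 3′ on the strand of its gene, with the E-box in capitals. They lie at chr2:177212711-177212740 (+) for HNRNPA3, chr4:82374001-82374030 (-) for HNRNPD, chr4:82430364-82430393 (-) for HNRNPDL, chrX:101408168-101408197 (+) and chrX:101408201-101408230 (+) for HNRNPH2, chr10:68331631-68331660 (+) for HNRNPH3 and chr19:8444921-8444950 (+) for HNRNPM.
HNRNPA3: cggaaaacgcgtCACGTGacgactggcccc
HNRNPD: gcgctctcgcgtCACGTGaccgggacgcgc
HNRNPDL: agaggcccggggCACGTGcagaaaggagcc
HNRNPH2 first site: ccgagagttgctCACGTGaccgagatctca
HNRNPH2 second site: gacgtaggcgctCACGTGattactcgctta
HNRNPH3: tgccggtcgaacCACGTGgggccctttccg
HNRNPM: gttgcgtcgggtCACGTGggcgcgcaggcg
The motif begins 71, 27, 156, 42, 9, 50 and 42 bases before the RefSeq start, in that order. These windows were searched after the values were seen, and a match is a description of letters, not of binding. Of the 6 genes, HNRNPD, HNRNPDL, HNRNPH3, HNRNPA3 and HNRNPM fell with 4OHT, with log2 fold changes of -0.88, -0.73, -0.70, -0.49 and -0.35, while HNRNPH2, which holds the motif 2 times, was at -0.04 and did not pass. As 17 of the 22 hnRNP members tested fell, and 25.5% of all genes tested, nothing is read from these 5 falls. MYC, whose protein binds these letters, was at 49.5 to 57.7 CPM in the DMSO libraries, 86 to 91.3 CPM in the 4OHT libraries and 104 to 128 CPM in the 4OHT+3DA libraries. A part of MYC in the members' values was not tested.

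The letters CCAAT, sought on both strands, were in 14 of 22 hnRNP windows (63.6%), 2 of 12 SR windows (16.7%) and 34.5% of all windows. The E2F form TTTCCCGC was in the windows of SRSF10 and TRA2B among the SR genes (16.7%), in 1 hnRNP window (4.55%) and in 1.87% of all windows. A second E2F form, TTTGGCGC, and the cyclic AMP response element TGACGTCA were in 0 windows of either family, against 0.732% and 2.32% of all windows.

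Proliferation markers moved in the same comparison, in which 25.5% of all genes tested were called lower. All 16, among them MKI67 and the replication genes MCM2 and PCNA, fell with 4OHT, and their summed level was 327 to 353 CPM with 4OHT against 1720 to 1789 CPM with DMSO. MKI67, a protein of cycling cells, stood at 28.3 ± 2.49 CPM with DMSO and 2.03 ± 0.974 CPM with 4OHT (-3.74 on the log2 scale, adjusted p = 2.6e-11). The part of cell division in the members' falls was not tested.

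Adding 3DA to RAS-activated cells was examined by comparing 4OHT+3DA with 4OHT. Members that changed were higher: 8 of 12 SR members and 10 of 22 hnRNP members rose, and 0 fell in either family (edgeR, adjusted p under 0.05). Over all genes tested, 14.4% were called higher and 12.4% lower, 26.9% in all. The median log2 fold change was 0.33 for SR and 0.25 for hnRNP, against 0.01 for all genes tested. Every 4OHT+3DA library lay above every 4OHT library in 5 SR and 8 hnRNP members, which held for 12.8% of all genes tested. Without library 31, 6 SR and 10 hnRNP members rose and 1 SR member, SRSF5, fell, beside 12.5% and 11.6% of all genes, and the medians were 0.18 and 0.20. With library totals 9 SR and 14 hnRNP members were called higher and 0 lower, beside 19.1% of all genes higher and 9.11% lower. The comparison shares the 4OHT libraries with the one before, so a member's values in both are not independent.

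Library 31 was often the highest. It was the highest of all 12 libraries for 7 of 12 SR members (58.3%), 7 of 22 hnRNP members (31.8%) and 19.5% of all genes tested. Within the 4OHT+3DA group it was highest for 10 SR members (83.3%), 15 hnRNP members (68.2%) and 33.5% of all genes. MALAT1, a long noncoding RNA held in nuclear speckles with the SR proteins, stood at 561, 743, 1520 and 509 CPM in libraries 29 to 32. For MALAT1, library 31 was more than double the others of its group. It lay within the DMSO range of 1505 to 1950 CPM, and the 4OHT libraries were at 1003 to 1120 CPM. NEAT1, the RNA of paraspeckles, was close in libraries 29 to 32 at 16.5, 17.5, 17.9 and 13.4 CPM. The part of nuclear RNA content or of RNA quality in library 31 was not tested.

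**Figure D4:**
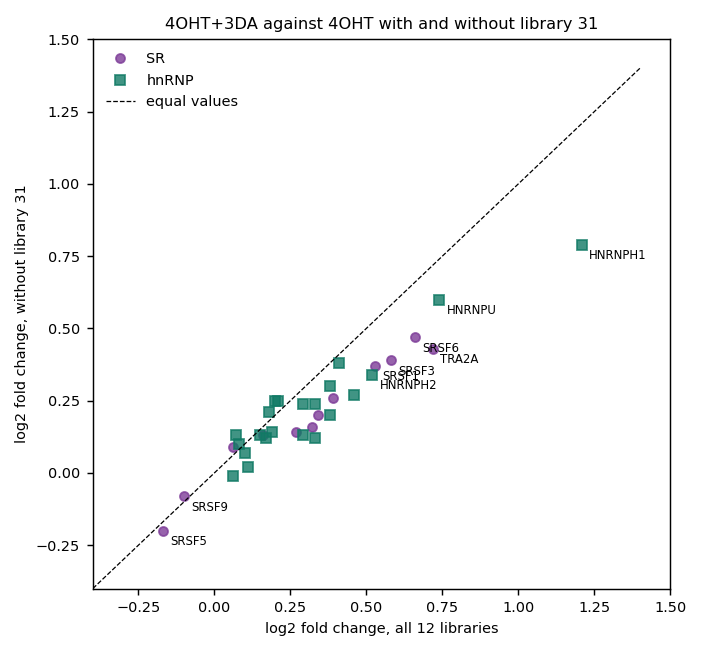
Log2 fold change of each tested member for 4OHT+3DA against 4OHT, from all 12 libraries (horizontal axis) and without library 31 (vertical axis); circles are SR, squares hnRNP, and the dashed line marks equal values. Members with a large value lie below the line, HNRNPH1 most (1.21 against 0.79), and members near 0 lie close to it.

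TRA2A, SRSF6, SRSF3 and SRSF1 rose most among the SR members. TRA2A stood at 76.1, 75.4, 88.7 and 81.3 CPM in the 4OHT libraries and at 114, 130, 204 and 81.3 CPM in the 4OHT+3DA libraries. Library 31 was highest and library 32 was inside the 4OHT range, so the groups overlapped (log2 fold change 0.72, SE 0.18, adjusted p = 0.00582, without library 31 0.43, adjusted p = 0.00511). SRSF6 had 107, 111, 120 and 105 CPM with 4OHT and 148, 171, 238 and 141 CPM with 3DA added. All its 4OHT+3DA libraries lay above all 4OHT libraries, and the log2 fold change was 0.66 (SE 0.12, adjusted p = 4.8e-04), or 0.47 without library 31 (adjusted p = 2.3e-05). SRSF3 had 300, 342, 489 and 298 CPM in the 4OHT+3DA libraries, above the 225 to 249 CPM of the 4OHT libraries. The log2 fold change was 0.58 (SE 0.12, adjusted p = 0.00143), or 0.39 without library 31 (adjusted p = 1.9e-04). SRSF1 had 195, 232, 302 and 188 CPM, above the 153 to 164 CPM of the 4OHT libraries. Those groups were apart as well (0.53, SE 0.11, adjusted p = 0.00137, without library 31 0.37, adjusted p = 3.0e-04).

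TRA2B and SRSF2 also rose, with log2 fold changes of 0.39 and 0.34 (0.26 and 0.20 without library 31). TRA2B had 111, 119, 153 and 101 CPM in the 4OHT+3DA libraries, the lowest of which met the highest 4OHT library. SRSF2 had 144, 137, 192 and 130 CPM, all above its 4OHT values of 114 to 121 CPM. SRSF10 and SRSF11 passed with library 31, at 0.27 (adjusted p = 0.0393) and 0.32 (adjusted p = 0.0367), and not without it, at 0.14 (adjusted p = 0.108) and 0.16 (adjusted p = 0.103). SRSF5, which did not fall with 4OHT, was at -0.17 (adjusted p = 0.0673), and at -0.20 without library 31 (adjusted p = 0.0225). It was also called lower without 4OHT library 24. SRSF4, SRSF7 and SRSF9 did not pass, with 0.06, 0.16 and -0.10.

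HNRNPH1 had the largest value of the set. It stood at 249, 239, 283 and 265 CPM in the 4OHT libraries and at 403, 574, 1054 and 366 CPM in the 4OHT+3DA libraries. Every 4OHT+3DA library was higher, and they differed among themselves more than for any other member given per library. The log2 fold change was 1.21 (SE 0.22, adjusted p = 5.1e-04), or 0.79 without library 31 (SE 0.11, adjusted p = 9.9e-06). HNRNPU stood at 114, 167, 197 and 133 CPM with 3DA, against 69.2 to 116 CPM with 4OHT. Library 29 was inside the 4OHT range and the others above it (0.74, SE 0.15, adjusted p = 0.00102, without library 31 0.60, adjusted p = 7.4e-04). HNRNPH2 had 175, 162, 178 and 180 CPM with 4OHT and 198, 245, 338 and 215 CPM with 3DA added. It had not fallen with 4OHT, and all its 4OHT+3DA values lay above (0.52, SE 0.12, adjusted p = 0.00329, without library 31 0.34, adjusted p = 0.00129). HNRNPA1 had 212, 217, 233 and 214 CPM with 4OHT and 301, 284, 307 and 269 CPM with 3DA added. Library 31 was close to the others here, and the log2 fold change was 0.41 (SE 0.065, adjusted p = 1.4e-04) with it and 0.38 (adjusted p = 4.9e-05) without it.

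Of the other hnRNP members, HNRNPA2B1, HNRNPA3, HNRNPA0, HNRNPLL, HNRNPM and HNRNPF rose, with log2 fold changes from 0.18 for HNRNPF to 0.38 for HNRNPA2B1 and HNRNPA3. Without library 31, HNRNPA2B1 was at 0.20, HNRNPA3 at 0.30, HNRNPA0 at 0.24, HNRNPLL at 0.24, HNRNPM at 0.25 and HNRNPF at 0.21. Removing a trend of level over GC content, chosen after the data were seen, ended the calls of HNRNPA2B1 (0.19), HNRNPA3 (0.16), HNRNPLL (0.07), SRSF10 (0.05) and SRSF11 (0.12). Of both families together, 2 members gained a call with that correction. With only the 8 libraries of this comparison in the fit, 6 of 22 hnRNP members were called higher in place of 10. The share of all genes called in that fit is not given here, so the drop is not read as particular to these members. The members that fell most with 4OHT, HNRNPUL2, HNRNPD, HNRNPDL and HNRNPH3, did not pass here. HNRNPDL had 147, 159, 170 and 137 CPM in the 4OHT+3DA libraries (0.17, 95% interval 0.01 to 0.33, adjusted p = 0.0835). HNRNPH3 had 95.6, 91, 86.9 and 84.4 CPM (0.08, 95% interval -0.07 to 0.23), HNRNPD 38.1, 39.9, 57.3 and 27.7 CPM (0.33, 95% interval -0.05 to 0.70) and HNRNPUL2 3.18, 2.12, 2.82 and 1.66 CPM (0.06, 95% interval -0.47 to 0.60). All of these overlapped the 4OHT libraries. Without library 31, HNRNPDL was at 0.12, HNRNPH3 at 0.10, HNRNPD at 0.12 (adjusted p = 0.535) and HNRNPUL2 at -0.01. HNRNPC missed the threshold narrowly (0.15, adjusted p = 0.0502). The calls of HNRNPF, HNRNPM, HNRNPLL, SRSF10 and SRSF11 were lost in 2 or more of the fits that left out 1 library of these groups. The 16 proliferation markers all rose here, beside 14.4% of all genes tested, to a summed level of 715 to 786 CPM. Their part in the members' values was not tested.

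The comparison of 4OHT+3DA with DMSO, which shares its libraries with both others, shows how far the levels lay from those of control cells. Of 12 SR members, 1 was higher (TRA2A), 1 lower (SRSF2) and 10 did not pass, and of 22 hnRNP members, 4 were higher, 8 lower and 10 did not pass. Over all genes tested, 27% were called higher and 24.6% lower, 51.5% in all. The median log2 fold change was -0.03 for SR and -0.14 for hnRNP, against 0.01 for all genes. Every 4OHT+3DA library lay below every DMSO library in 1 SR and 7 hnRNP members (21.9% of all genes) and above in 0 SR and 1 hnRNP member (22.8%). Without library 31, 4 SR members (SRSF1, SRSF2, SRSF7 and TRA2B) and 10 hnRNP members were lower, 0 SR and 2 hnRNP members were higher, and the medians were -0.14 and -0.22, beside 24.9% and 27.1% of all genes called lower and higher. With library totals 5 SR and 11 hnRNP members were lower and 0 SR and 1 hnRNP member higher, beside 30.5% and 21.1% of all genes.

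The members lower than in control cells were led by HNRNPUL2 (log2 fold change -0.88, adjusted p = 0.00277), HNRNPH3 (-0.62, adjusted p = 2.4e-07), HNRNPDL (-0.56, adjusted p = 2.2e-06) and HNRNPD (-0.55, adjusted p = 0.00736). HNRNPUL1 (-0.39), HNRNPA1 (-0.28), HNRNPR (-0.25) and HNRNPM (-0.16) were lower as well. Without library 31, the values were -0.95 for HNRNPUL2, -0.60 for HNRNPH3, -0.61 for HNRNPDL, -0.76 for HNRNPD, -0.34 for HNRNPUL1, -0.30 for HNRNPA1 and -0.30 for HNRNPR. The call of HNRNPM was marginal (adjusted p = 0.05, just under the threshold) and was lost without library 31 (adjusted p = 0.117). HNRNPH2 was the only member whose 4OHT+3DA libraries all lay above the DMSO libraries, at 198 to 338 CPM against 165 to 195 CPM (0.48, SE 0.12, adjusted p = 0.00229, without library 31 0.30, adjusted p = 0.00136). HNRNPAB was called higher with and without library 31 (0.31 and 0.35, adjusted p = 0.0416 and 0.0239). Its 4OHT+3DA libraries, at 13.2 to 15.7 CPM, overlapped the DMSO libraries at 10.5 to 13.7 CPM, and it did not pass a threshold of 0.01. The higher calls of HNRNPH1 (0.55, adjusted p = 0.043), HNRNPLL (0.23, adjusted p = 0.0401) and TRA2A (0.48, adjusted p = 0.028) were lost without library 31, at 0.13, 0.19 and 0.20. SRSF3 and HNRNPC did not pass, at 0.04 (95% interval -0.23 to 0.30) and 0.00 (-0.13 to 0.13), which bounds the difference without showing equality. Without library 31, SRSF3 was at -0.15 (adjusted p = 0.0762), with the other sign, and HNRNPC at -0.02 (adjusted p = 0.805). Counts also moved with single libraries other than 31, and the shares of all genes called in those fits are not given here. The higher call of TRA2A was lost without DMSO library 17, 18 or 20, and the lower SR count of 1 became 0 without DMSO library 18 or 4OHT+3DA library 30 and 2 without library 29. The higher hnRNP count of 4 became 1 without DMSO library 17 or 18 or 4OHT+3DA library 30, and 2 without DMSO library 19 or 20.

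Genes that work with the members were counted in the same fit, and the shares of all genes to hold beside each count are 26.5% higher and 25.5% lower with 4OHT, and 14.4% higher and 12.4% lower with 3DA added. With library totals these shares were 18% and 35.7% with 4OHT, so the counts for that scaling are given too. Where a single library is left out, the counts of these lists stand without the share of all genes called in that fit. No shift of such a count is read as particular to a list. Kinases and importers of SR proteins, 10 of 11 tested, moved both ways with 4OHT, 3 higher and 2 lower, shares near those of all genes (26.5% and 25.5%). With library totals 1 was higher and 3 lower. CLK3 and SRPK1 rose (0.42 and 0.27, adjusted p = 3.9e-04 and 0.00597) with the importer TNPO3 (0.19), while CLK1 and SRPK2 fell (-0.57 and -0.22). CLK enzymes phosphorylate the arginine-serine tails in the nucleus, and SRPK enzymes do so mainly in the cytoplasm. With 3DA added, CLK1, CLK4, DYRK1A and SRPK1 rose, by 0.45, 0.33, 0.81 and 0.31, and 0 fell. Without library 31, the rise of CLK4 was not called (0.27, adjusted p = 0.0968) and DYRK1A was at 0.49, CLK1 at 0.42 and SRPK1 at 0.24, and 3 were called higher. The level of SRPK1 was 113 ± 5.81 CPM with DMSO, 136 ± 2.96 CPM with 4OHT and 168 ± 17.8 CPM with 3DA added. The 2 falls with 4OHT became 1 when library 18, 19, 20, 21, 22, 24 or 30 was left out.

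SR-related nuclear proteins, 20 tested, carry arginine-serine stretches without being classic SR proteins. With 4OHT 7 fell and 0 rose, led by THRAP3 (-0.52, from 161 ± 4.09 to 112 ± 8 CPM, adjusted p = 8.5e-06), BUD13 (-0.48) and SRRM1 (-0.41), and the list's median was -0.16. Beside 25.5% of all genes lower, this count moved with the processing. It was 15 with library totals, where 35.7% of all genes were lower. At a threshold of 0.01 it was 3, where 2587 of 13248 genes tested were lower. With 3DA added 6 rose and 0 fell, led by ARGLU1 (0.38, adjusted p = 0.0134, without library 31 0.23), SREK1 (0.35, without it 0.25) and SRRM1 (0.30, without it 0.23), with a median of 0.17, and the count without library 31 was 6 as well. The count of falls went from 7 to 4 without DMSO library 19 or without 4OHT library 21 or 22.

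Other splicing regulators outside both families, 40 of 44 tested, held larger changes with 4OHT than any member. There 14 fell and 4 rose, beside 25.5% of all genes lower and 26.5% higher, and with library totals 25 were lower and 1 higher. CELF2, which binds GU-rich sequences, went from 17.5 ± 2.61 down to 6.03 ± 1.04 CPM (-1.54, SE 0.16, adjusted p = 1.3e-07), and PTBP2, the neuronal form of the polypyrimidine tract protein, fell from 17.7 ± 1.7 to 7.57 ± 1.12 CPM (-1.22). KHDRBS3, a STAR-family protein, rose from 3.67 ± 0.579 to 10.9 ± 2.08 CPM (1.57, SE 0.18, adjusted p = 3.6e-07). With 3DA added 6 rose, led by PTBP2 (0.71, adjusted p = 0.00244), and 2 fell, KHDRBS3 (-1.07, adjusted p = 8.8e-05) and RBFOX2 (-0.37). Without library 31, 8 were higher and 3 lower, with PTBP2 at 0.57, KHDRBS3 at -1.02 and RBFOX2 at -0.32. The count of rises went from 6 to 10 without 4OHT+3DA library 32.

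The spliceosome core, 52 genes tested, changed in both directions with 4OHT. There 11 rose and 9 fell, with a median of 0.04, beside 26.5% and 25.5% of all genes. The split turned with the scaling, since with library totals 3 were higher and 17 lower. The largest changes were LSM5 (-0.63), SNRPA1 (0.59) and LSM6 (-0.58). LSM5 and LSM6 belong to the ring on the U6 RNA, and SNRPA1 is a protein of the U2 particle. With 3DA added 10 rose and 1 fell, led by LSM5 (1.22, without library 31 0.84), SNRPE (0.88, without it 0.57) and BCAS2 (0.81, without it 0.51), and without library 31 the counts were 8 and 1. The count of 11 rises with 4OHT went to 6 or 7 without DMSO library 17 or 19 or without 4OHT library 21 or 22, and the 10 rises with 3DA went to 6 without 4OHT library 21. The 1 fall with 3DA, SF3B5, went to 2 falls when library 20 was left out and to 3 when library 29 or 32 was.

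Nonsense-mediated decay, the pathway that removes transcripts with poison exons, had 6 of 14 tested factors higher and 2 lower with 4OHT, beside 26.5% and 25.5% of all genes, and 4 higher and 4 lower with library totals. SMG6, the endonuclease of the pathway, rose from 27.2 ± 1.7 to 50.6 ± 5.07 CPM (log2 fold change 0.90, SE 0.098, adjusted p = 2.5e-07), while MAGOHB, a subunit of the exon junction complex, fell (-0.86, adjusted p = 1.9e-04). With 3DA added 1 rose, MAGOHB (0.52, adjusted p = 0.0238, not called without library 31), and 1 fell, UPF3A (-0.42, adjusted p = 0.00359, without it -0.45). Of 2 falls with 4OHT, 1 was lost without DMSO library 18 or 19 or 4OHT library 21, 22 or 24. The 1 rise with 3DA became 0 without 4OHT library 22 and 3 without 4OHT+3DA library 29 or 32.

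Methyltransfer to RNA and to arginine uses S-adenosylmethionine, and arginine methylation is known on many hnRNPs. Among m6A writers, erasers and readers, 18 of 19 tested, 5 rose and 3 fell with 4OHT, led by IGF2BP1 (0.66, adjusted p = 1.8e-06), the scaffold ZC3H13 (-0.51) and the demethylase ALKBH5 (0.45). These counts, beside 26.5% and 25.5% of all genes, became 3 higher and 7 lower with library totals. With 3DA added 6 rose, led by WTAP (0.50, adjusted p = 0.0272, not called without library 31) and METTL14 (0.43, adjusted p = 0.0105, without it 0.34), and 1 fell, IGF2BP2 (-0.25, without it -0.20). The count of 6 was 4 without library 31. That count of 6 was 2 or 3 without 4OHT library 22 or 24 or 4OHT+3DA library 30, and the 1 fall was lost without 4OHT library 23 or 24 or 4OHT+3DA library 30. Among arginine methyltransferases and partners, 11 of 12 tested, 4 rose and 1 fell with 4OHT, led by WDR77, the partner of PRMT5 (0.52, adjusted p = 5.7e-06), PRMT9 (0.44) and PRMT3 (0.41). With library totals 1 was higher and 3 lower. With 3DA added 2 rose, PRMT6 (0.54, adjusted p = 0.00289, without library 31 0.39) and PRMT3 (0.40, adjusted p = 0.0129, without it 0.32), and 3 were higher without library 31. The 1 fall with 4OHT, CARM1, became 3 without library 31, 2 without library 29 and 0 without DMSO library 18, and the 2 rises with 3DA became 1 without 4OHT library 22. AHCY itself, the target of 3DA, was at 125 to 135 CPM with DMSO, 161 to 182 CPM with 4OHT and 144 to 186 CPM with 3DA added, and did not pass between the last groups (-0.05, adjusted p = 0.684).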

How the data were processed

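Libraries were made by Smart-Seq2 with a Nextera XT kit, per the labels' protocols, which keeps no strand. The authors deposited raw counts, whole reads per gene without normalisation. The submitters' processing notes name CASAVA 1.8.2, TopHat2 2.0.11, featureCounts 1.18.0 and the builds hg19 and GRCh37. How multiply matched reads were counted is not given in the sources used here, so genes with near-identical copies or shared exons are uncertain.

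Columns were matched to samples by name, and 50127 of 62069 identifiers to a symbol. Genes kept by filterByExpr (minimum count 10) were scaled by TMM and fitted with edgeR 4.0.16 in R 4.3.3, in 1 quasi-likelihood model of 12 libraries and 3 groups (9 residual degrees of freedom). Benjamini-Hochberg adjustment ran over 13248 genes, with calls at 0.05. An SE is the log2 fold change over the square root of F, without its sign, and intervals are 95%. CPM use the effective library size.

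Values per library are given for the 4 members of each family with the largest change past the threshold in 4OHT against DMSO and in 4OHT+3DA against 4OHT. Related lists are given by up to 3 genes per comparison, and others were singled out after their values were seen. The members and lists were chosen with earlier results of these data known. Alternatives were DESeq2 1.42.0, limma-voom (limma 3.58.1), other scalings and filters, fewer libraries, added pseudogene reads and a threshold of 0.01. Alternatives added with the data in view were a GC correction (loess, span 0.4, 98% of genes tested), the same without library 31, and thinning to 9451160 reads. The fit was also run on simulated counts, with results not given here. Those counts held no library that stands apart as library 31 does, so they do not bear on it.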

Additional observations from a re-analysis of the deposited data

Results flagged for a closer look

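Within groups of 4 libraries, 4 of 102 groups of a tested member held a library far from the others, by the ratio of its gap to the group's range (Dixon's test at the 95% level). Chance flags about 1 in 20 groups. All 4 were DMSO groups. HNRNPH1 stood at 334 CPM in DMSO library 17, against 425 to 443 CPM in the other 3. HNRNPDL stood at 212 CPM in the same library, against 230 to 232 CPM. SRSF2 stood at 193 CPM in DMSO library 18, against 179 to 180 CPM. HNRNPA1L3, with few reads, stood at 5.21 CPM in DMSO library 20, against 6.66 to 6.91 CPM. Library 31 passed this rule for 0 members.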

How the results depend on the processing

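No paired analysis was possible because the groups share no replicate number in the labels. For single members, 770 values under alternatives kept their side of the threshold in 4OHT against DMSO, 35 lost the call and 11 gained it, in 4OHT+3DA against 4OHT 735, 59 and 22, in 4OHT+3DA against DMSO 705, 68 and 43, and 0 changed sign while called. Most counts that moved less are not listed below. In 4OHT against DMSO, SR members called higher were 0 with library totals or a threshold of 0.01 and 0 to 1 with a library left out. The hnRNP members called lower were 12 with a threshold of 0.01, in place of 17. With the GC correction in 4OHT+3DA against DMSO, 8 members of both families together gained a call and 3 lost it. The median was -0.44 for SR and -0.64 for hnRNP with library totals, and -0.22 and -0.41 with the GC correction, with or without library 31. In 4OHT+3DA against 4OHT, SR members called higher were 5 with a threshold of 0.01 or the GC correction without library 31, and SR members called lower were 1 with the GC correction, with or without library 31, and 0 to 1 with a library left out. The hnRNP members called higher were 6 with only the 8 libraries compared and 5 with a threshold of 0.01. The SR median was 0.15 with the GC correction without library 31. In 4OHT+3DA against DMSO, SR members called higher were 0 with DESeq2, limma-voom, library totals, the 8 libraries or a threshold of 0.01, 2 with the GC correction, and 0 to 1 with a library left out. SR members called lower were 2 with DESeq2, limma-voom, no filter, a mean CPM of at least 1, the GC correction or thinning, 5 with library totals, 4 with the GC correction without library 31, 0 with a threshold of 0.01, and 0 to 4 with a library left out. The hnRNP members called higher were 1 with library totals, the 8 libraries or a threshold of 0.01, 2 with thinning, and 1 to 4 with a library left out. The SR median there turned to 0.01 with no filter and ran from -0.14 to 0.05 with a library left out. These counts stand without the share of all genes called in each setting, so no shift is read as particular to the members. The cause of these shifts was not tested, apart from the fewer libraries or the stricter threshold of a setting. Library totals from 9451160 reads limit what can be said of SRSF8, SRSF12, HNRNPCL1 and HNRNPCL4, and of HNRNPUL2 at a few CPM. For SRSF8 and HNRNPCL4, which had no read in any library, it is also not known whether the counting could assign reads to them.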
